A study of Mus musculus with 9 samples.

Results

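Glutamate, GABA, glycine and nicotinic acetylcholine receptor genes were compared in 9 RNA sequencing libraries of mouse hippocampus. Gene symbols beginning Gria, Grin, Grik, Grid, Grm, Gabr, Gabbr, Glra, Glrb or Chrn were taken (Grin, Grid and Grm only before a digit), and genes with a mean under 5 counts over the sham and CLP libraries were dropped. The prefixes matched 71 of the 38911 gene symbols in the table, and 24 stayed. Of these, 22 encode receptor subunits, and 2, Grin1os and Chrna1os, are transcripts from the opposite strand of a receptor gene. They are counted apart. The animals were adult, specific-pathogen-free BALB/c mice without a stated genotype. The group CTL had a sham operation, SAE (sepsis-associated encephalopathy) had cecal ligation and puncture, or CLP, an operation that causes sepsis from the gut, and CCLF had CLP and 200 mg/kg of flavonoids of Cuscuta chinensis. Each group held 3 libraries, which the labels call biological duplicates. The comparison asks how transmitter receptor transcripts differ between the hippocampus of CLP and sham mice.

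Fast transmission in the brain runs through ligand-gated channels. Glutamate opens AMPA, NMDA and kainate receptors, GABA opens GABA-A receptors, glycine opens its own chloride channel, and acetylcholine opens nicotinic receptors. Slower signals pass through G protein-coupled metabotropic glutamate receptors and GABA-B receptors. Hippocampal pyramidal and granule cells carry both kinds, and the subunits in a receptor set its kinetics, location and drug sensitivity.

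In Lcn2, all 6 sham and CLP libraries went against their labels, and the extract columns stood apart in their spread. Lcn2, an acute-phase gene that inflamed tissue raises, had 13246 to 14822 counts in the libraries labelled sham and 6 to 14 in those labelled CLP. So sham and CLP stand below for the libraries labelled sham and labelled CLP, and every direction rests on these labels. If these labels were exchanged, every direction between them would reverse. Whether they are exchanged was not tested. Among genes with a mean of at least 10 counts, the columns labelled CLP plus extract typically differed from each other by less than counting noise. The exception was the 1058 genes with the highest mean counts. For genes with a mean of 10 to under 50 counts, the median chi-square between pairs of these columns was 0.153 to 0.155, where pure counting noise gives 0.455 and pairs of sham or CLP libraries gave 0.629 to 0.687. For the 1058 genes with the highest mean counts it was 1.11 to 1.22, above counting noise, against 1.09 to 1.97 between CLP-labelled pairs and 1.58 to 1.91 between sham-labelled pairs. Between 97.9% and 98.1% of genes with a mean of at least 5 had their extract value inside the range of the 6 sham and CLP libraries. For a sham or CLP library against the other 5, that share was 64.2% to 74.8%. No effect is read from the 3 extract columns. They enter the comparison of the other groups only in the alternative fit of all 9 libraries, and their values are given near the end. Library totals ran from 4626519 to 4895474 counts. Of hippocampal markers, 6 of 6 for the dentate gyrus, 5 of 6 for CA3 and CA2 and 3 of 4 for CA1 reached a mean of 5 counts. Stxbp6 of the dentate gyrus list, with 2 to 4 counts with the sham label and 6 to 9 with the CLP label, reached it only through the CLP-labelled libraries. Striatal markers summed to 135 to 145 CPM (counts scaled to library size with edgeR's factors) with the sham label and 92 to 108 with the CLP label, and cerebellar markers to 2.42 to 2.92 and 1.92 to 9.05, with Pcp2, Fat2 and Gabra6 at 0. Choroid plexus markers summed to 494 to 782 CPM with the sham label and 624 to 1254 with the CLP label, and 1 of 4 was higher, Sostdc1 (2.99 ± 0.39, adjusted p = 0.00257). Neocortical markers summed to 30.7 to 37.7 and 36.1 to 42.8 CPM, and 1 of 3 was higher, Fezf2 (1.10 ± 0.22, adjusted p = 0.00014). The part of these regions in the receptor values was not tested.

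The table counts RefSeq transcripts, and many receptor genes had almost no counts. Of 68 receptor subunit symbols, 46 fell under the minimum, 35 had a mean under 1, and 24 were at 0 in all 9 libraries. Among those at 0 was Grin1, which encodes the obligatory NMDA receptor subunit. Gria2, the AMPA subunit that blocks calcium entry, has 29 transcript rows and had 0 or 1 count in each library. Gria1, its usual partner in CA1, had 0 to 2 counts over 6 rows. Of 9 subunits with 1 transcript row 6 (66.7%) passed the minimum, of 20 with 2 or 3 rows 6 (30%), and of 39 with at least 4 rows 10 (25.6%). Over all coding genes those shares were 47%, 31.7% and 28.4%. For a gene with several rows, a count may stand for 1 transcript only, and a low count does not show low expression.

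**Figure D1:**
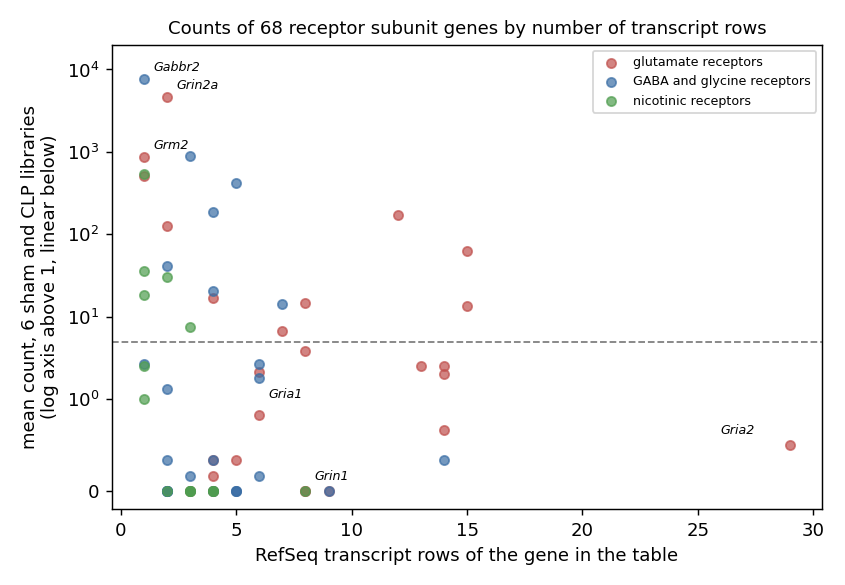
Mean count over the 6 sham and CLP libraries (vertical, log above 1 and linear below) against the number of RefSeq transcript rows (horizontal) for 68 receptor subunit genes, 1 point per gene, with the minimum of 5 counts dashed. Gabbr2 with 1 row sits at 7763 and Grin2a with 2 rows at 4581, while Gria2 with 29 rows sits at 0.5 and Grin1 at 0.

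Of the 22 receptor genes, 8 were higher and 1 was lower in the libraries labelled CLP, and 13 did not pass the test (edgeR's quasi-likelihood test, adjusted p under 0.05 by the Benjamini-Hochberg method over 10077 genes). The higher genes were Grm3, Grm2, Gabra2, Chrna3, Grik5, Chrna7, Gabbr1 and Grin2a, and the lower gene was Gabra5. Over all tested genes 41.7% were called, 20.7% higher and 21.0% lower, so 9 of 22 (40.9%) is close to the share over all genes. The 8 higher members are 36.4% and the 1 lower member 4.55%. Groups did not overlap in 11 of 22 members, and in 50.8% of all tested genes. The median log2 fold (labelled CLP minus sham, as everywhere below) was 0.27 over the 22 members and 0.01 over all tested genes. Only Grm3, Grm2 and Gabra2 of the 22 were called more than 2-fold higher, as were 7.78% of all tested genes. In bulk tissue, a change in the number of cells of a type and a change in RNA per cell cannot be told apart. Of 5 tested neuron markers 3 were higher and 0 lower. The higher ones were Tubb3 (0.27 ± 0.04, SE), Nrgn (0.19 ± 0.03) and Stmn2 (0.15 ± 0.04). The part of neuron markers in the receptor values was not tested.

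**Figure D2:**
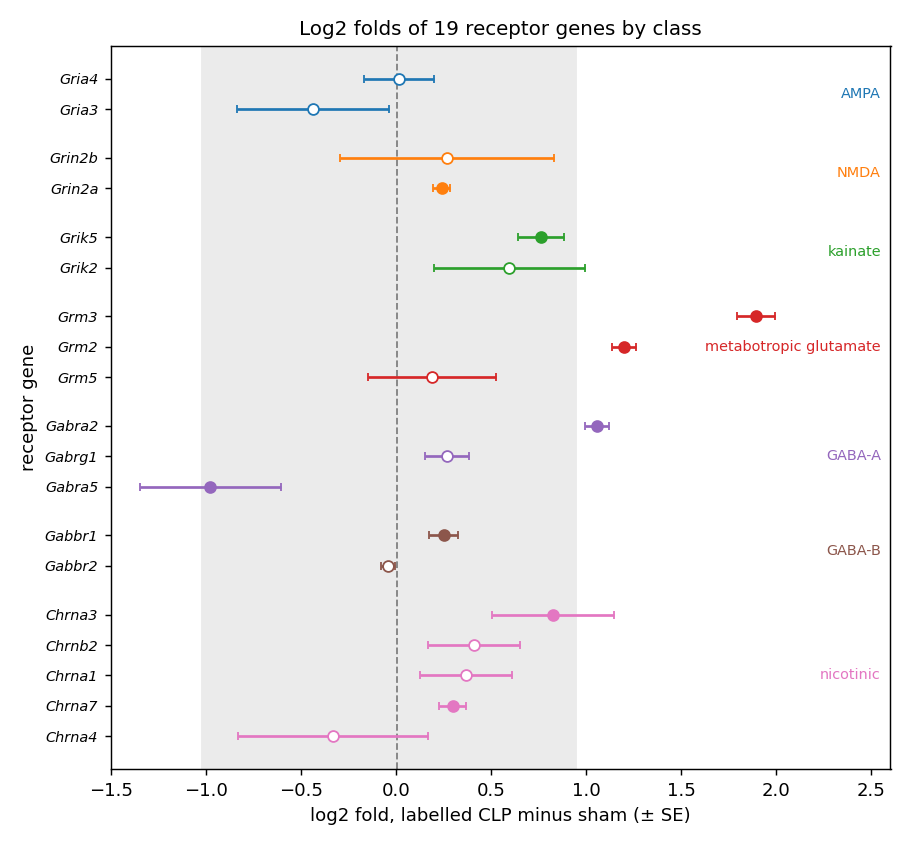
Log2 fold, labelled CLP minus sham, with its SE (bars) for 19 receptor genes by class, filled where the adjusted p was under 0.05. The grey band spans the 10th to 90th percentile of all tested genes (−1.02 to 0.95) and the dashed line marks their median, and Grm3, Grm2 and Gabra2 lie above the band.

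The group II metabotropic glutamate receptors Grm2 and Grm3 had the largest rises among the members. Both encode receptors that couple to inhibitory G proteins and restrain transmitter release, Grm2 mostly on neurons and Grm3 also on astrocytes. For each of these and for Gabra2, the 250 bases before the RefSeq start (build GRCm38.p6) are shown, because they are the members that rose more than 2-fold. Capitals mark the GC box GGGCGG on either strand.
Grm2, chr9:106656110-106656359 (- strand): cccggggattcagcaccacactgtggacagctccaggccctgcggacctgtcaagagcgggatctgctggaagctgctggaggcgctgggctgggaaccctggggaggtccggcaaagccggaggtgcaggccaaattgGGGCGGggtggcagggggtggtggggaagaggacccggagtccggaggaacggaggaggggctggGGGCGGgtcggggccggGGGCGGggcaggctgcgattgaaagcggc
Grm3, chr5:9725353-9725602 (- strand): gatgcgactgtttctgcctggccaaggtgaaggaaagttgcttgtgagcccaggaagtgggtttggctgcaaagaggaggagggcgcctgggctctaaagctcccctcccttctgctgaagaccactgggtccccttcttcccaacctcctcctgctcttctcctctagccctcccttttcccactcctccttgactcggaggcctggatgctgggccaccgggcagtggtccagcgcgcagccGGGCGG
Gabra2, chr5:71095850-71096099 (- strand): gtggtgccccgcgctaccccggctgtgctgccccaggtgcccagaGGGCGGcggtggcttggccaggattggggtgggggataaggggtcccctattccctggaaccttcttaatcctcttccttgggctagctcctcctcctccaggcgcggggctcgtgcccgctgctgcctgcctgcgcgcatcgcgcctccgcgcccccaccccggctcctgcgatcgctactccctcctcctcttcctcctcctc
The Grm2 window holds 3 GC boxes, and the Grm3 and Gabra2 windows hold 1 each. A window was found for 15 of the 22 members, and 9 of the 15 held a GC box, as did 32.7% of 32851 windows of that length. None of the 3 windows held the AP-1 motif TGANTCA, the CRE TGACGTCA or TATAAA, searched on both strands. These motifs occurred in 6.7%, 1.5% and 12.4% of all windows. The matches are descriptions of letters only.

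Grm3 had 204, 178 and 269 counts in the libraries labelled sham and 798, 782 and 858 in those labelled CLP. Every value with the CLP label was above every value with the sham label. The log2 fold was 1.89 ± 0.10 (SE), a 3.71-fold difference (adjusted p = 2.05e-11), higher than that of 98.0% of tested genes. Grm2 had 510, 501 and 578 counts with the sham label and 1178, 1275 and 1224 with the CLP label. Its groups were also apart, with a log2 fold of 1.20 ± 0.06 (2.30-fold, adjusted p = 2.96e-16). Each gene has 1 transcript row, so each count covers the gene as the table lists it. Grm5, a group I receptor of postsynaptic sites, had 14 to 18 counts with the sham label and 14 to 24 with the CLP label (0.19 ± 0.34, adjusted p = 0.695), and its groups overlapped. Its 95% interval, −0.47 to 0.85, leaves changes in either direction undetectable at this depth. Grm4, a group III receptor, fell just under the minimum with a mean of 3.83: it had 0 counts in all 3 sham-labelled libraries and 10, 6 and 7 in the CLP-labelled ones. Against a floor of 3 counts over the sham-labelled group, its CLP-labelled counts were 7.79-fold higher. The floor covers counting error of the sham-labelled group only. The CLP-labelled counts enter without their own counting error, so this value is not a lower bound. Grm4 was not tested, and it has 8 transcript rows. Just inside the minimum were Grin2b at 6.67 and Chrna4 at 7.5. Together the 3 tested metabotropic genes had 693 to 862 counts per sham-labelled library and 1992 to 2096 per CLP-labelled library.

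Of the lists of cell type and subfield markers, that for astrocytes was mixed, with 1 of 5 tested genes higher and 3 lower. Its summed level was 3255 to 3481 CPM with the sham label and 3384 to 3453 with the CLP label. The dentate gyrus list had 2 of 6 higher and 0 lower, at 823 to 899 and 1057 to 1096 CPM. Of its 5 genes with a mean of at least 5 counts in the sham-labelled libraries, 2 were higher. The higher genes were Dsp (0.51 ± 0.12) and Lct (2.03 ± 0.16), with 196 to 323 Lct counts against 1008 to 1101. C1ql2 (0.11 ± 0.05) and Calb1 (0.03 ± 0.05) were among those not called. The CA3 and CA2 list had 0 of 5 higher and 1 lower, at 2954 to 3206 and 2642 to 2891 CPM. The CA1 list had 0 of 3 higher and 1 lower, Mpped1 (−0.71 ± 0.13), at 963 to 1155 and 853 to 1041 CPM. Oligodendrocyte precursor markers had 5 of 6 higher and 0 lower, at 226 to 286 and 414 to 429 CPM. Microglia markers had 3 of 3 higher, at 425 to 550 and 631 to 707 CPM, with P2ry12 at 0. Endothelial markers had 2 of 3 higher and 1 lower, at 294 to 336 and 421 to 444 CPM, with Pecam1 at 0. Shares of the marker lists, here and elsewhere, are to be read against the 20.7% higher and 21.0% lower over all tested genes (41.7% called). The part of these lists in the rise of Grm2 and Grm3 was not tested.

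**Figure D3:**
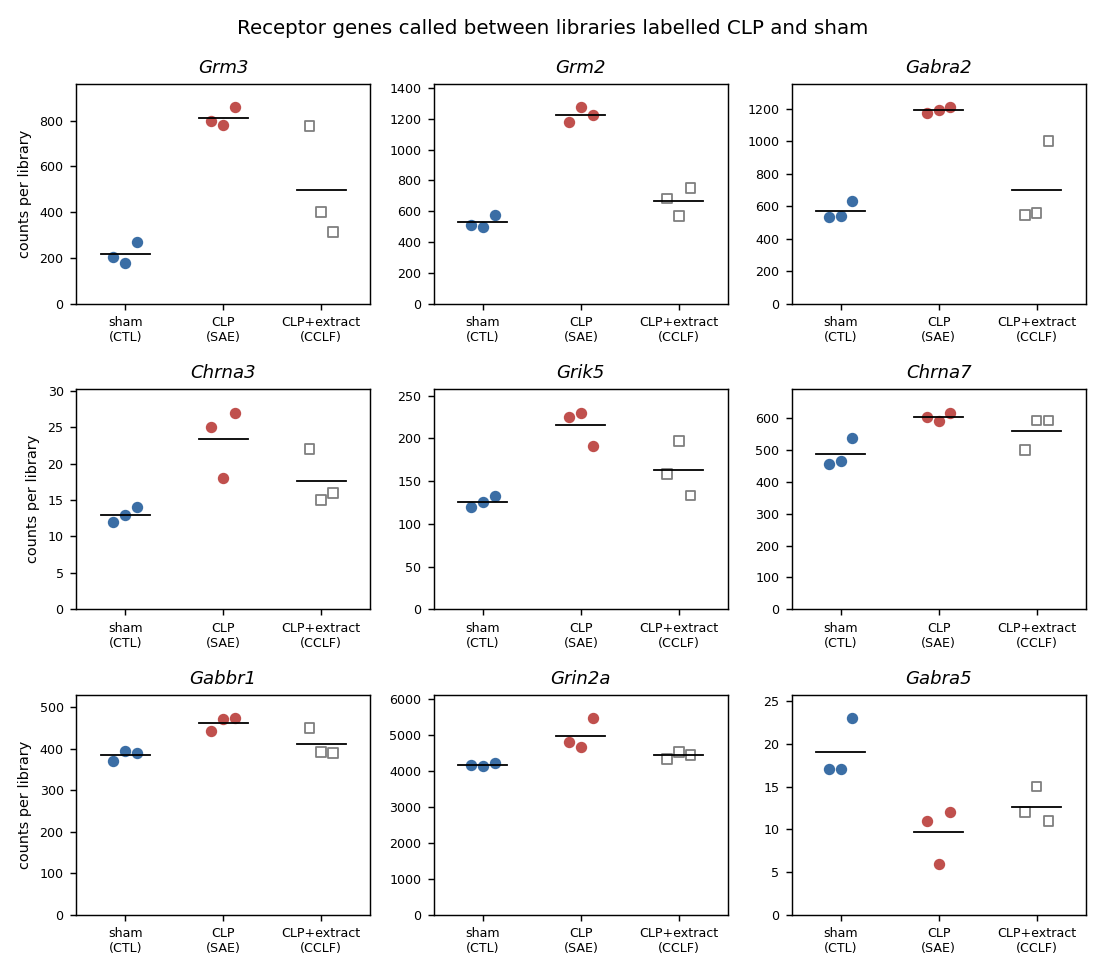
Counts per library (vertical, from 0) for the 9 receptor genes that passed the test, with filled circles for libraries labelled sham and CLP, open squares for the columns labelled CLP plus extract, and a bar at each group's mean. In all 9 panels the sham and CLP circles do not overlap, and in Grm3 the extract squares spread from 314 to 775.

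Of the ionotropic glutamate receptors, 2 of 7 tested genes were higher and 0 lower (28.6% called, against 41.7% of all tested genes). At an unadjusted p under 0.05 no further member of these classes would be called. Grin2a, the NMDA subunit that predominates in mature forebrain, had 4177, 4133 and 4228 counts in the libraries labelled sham and 4808, 4664 and 5477 in those labelled CLP. The values with the CLP label were all higher, but the rise was small, at 0.24 ± 0.04 on the log2 scale (1.18-fold, adjusted p = 5.68e-05). Its counts came to 99.9% from 1 of its 2 transcript rows. Grin2b, the NMDA subunit abundant in early development, had 1, 7 and 10 counts with the sham label and 6, 8 and 8 with the CLP label, and these overlapped (0.27 ± 0.56, adjusted p = 0.74).

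Grik5, a kainate subunit that binds glutamate with high affinity and works only together with another subunit, had 120, 125 and 133 counts in sham-labelled libraries and 225, 230 and 191 in CLP-labelled ones. The groups were apart (0.76 ± 0.12, 1.70-fold, adjusted p = 5.68e-06). All of its counts lay in 1 of 12 transcript rows, a predicted RefSeq model, so the change is that of this row. Grik2, a kainate subunit that forms channels on its own, had 8 to 14 and 8 to 21 counts (0.59 ± 0.40, adjusted p = 0.242). Its groups overlapped, and its counts were spread over 4 rows.

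The AMPA genes did not pass the test. Gria4, an AMPA subunit of interneurons and young neurons, had 68, 58 and 61 counts with the sham label and 54, 63 and 74 with the CLP label (0.02 ± 0.18, adjusted p = 0.952). Its 95% interval ran from −0.34 to 0.38, and its sign changed under 4 alternatives. Gria3 had 8 to 26 and 9 to 16 counts (−0.44 ± 0.40, adjusted p = 0.406). In both the groups overlapped. Grin1os, which lies opposite Grin1, had 228, 279 and 270 counts with the sham label and 203, 197 and 198 with the CLP label (−0.39 ± 0.10, adjusted p = 0.00287). The strand setting of the counting is not given in the sources used here, so its reads and those of Grin1 cannot be told apart where they overlap. Chrna1os had 9 to 12 and 7 to 14 counts (−0.01 ± 0.41, adjusted p = 0.984).

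GABA-A receptor genes moved in both directions, with 1 of 5 higher, 1 lower and 3 not called. That is 40% called, against 41.7% of all tested genes. Gabra2, the alpha2 subunit found at the axon initial segment and linked to anxiety-relieving drugs, had 533, 540 and 636 counts in the libraries labelled sham. In those labelled CLP it had 1178, 1192 and 1211. The groups were far apart relative to their spread (1.06 ± 0.06, 2.08-fold, adjusted p = 5.04e-15), and 99.9% of its counts came from 1 of 3 transcript rows. Gabra5, the alpha5 subunit of extrasynaptic receptors typical of hippocampal pyramidal cells, went the other way, with 17, 17 and 23 counts against 11, 6 and 12. Its log2 fold was −0.98 ± 0.37 (adjusted p = 0.0331), the groups did not overlap, and 96.5% of its counts came from 1 predicted row of 7. The call for Gabra5 was lost in 3 of 6 fits with 1 library left out (sham replicate 1, adjusted p = 0.0518, sham replicate 3, 0.116, and CLP replicate 2, 0.144). Over all its alternatives the adjusted p ran from 0.0161, in the fit that includes the extract columns, to 0.144.

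Gabrg1, a gamma subunit also found in glia, had 167, 158 and 185 counts with the sham label and 193, 196 and 230 with the CLP label. These groups did not overlap, but the difference did not pass the test (0.27 ± 0.12, adjusted p = 0.0632). It passed only in the fit of all 9 libraries, which takes part of its spread from the extract columns (adjusted p = 0.0337, range over its 14 alternatives 0.0337 to 0.231). The summed counts of the 5 GABA-A genes tested, most of which are from Gabra2, were 764 to 893 per sham-labelled library and 1448 to 1532 per CLP-labelled library. Interneuron markers had 2 of 5 tested genes higher and 0 lower, at 652 to 702 and 711 to 793 CPM. Vip was at 0, and the part of these markers in the GABA-A values was not tested.

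The GABA-B receptor is an obligate pair, in which Gabbr1 binds GABA and Gabbr2 couples to the G protein. Gabbr2 was the most counted member, at 7821, 7835 and 7885 counts with the sham label and 7504, 7764 and 7768 with the CLP label. All counts with the CLP label were lower, but after scaling to library size the groups overlapped, and its log2 fold was −0.04 ± 0.04 (adjusted p = 0.35), with a 95% interval of −0.12 to 0.03. Gabbr1 had 371, 396 and 390 counts with the sham label and 443, 471 and 474 with the CLP label. It rose by a small step with no overlap (0.25 ± 0.08, 1.19-fold, adjusted p = 0.00904), and 99.2% of its counts came from 1 predicted row of 5. No test of the difference between Gabbr1 and Gabbr2 was made. Of 5 glycine receptor genes none reached the minimum. Glra1 and Glra3 were at 0 in every library, Glrb had 0 or 1 count over 14 rows, Glra2 had 0 or 1, and Glra4 had 0 to 5.

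Of 5 nicotinic receptor genes, 2 were higher and 0 lower (40% called, against 41.7% of all tested genes). At an unadjusted p under 0.05 no further one would be called. Chrna7, the alpha7 subunit that forms calcium-permeable channels on hippocampal neurons, had 457, 466 and 539 counts in the libraries labelled sham and 603, 591 and 618 in those labelled CLP. The groups were apart (0.30 ± 0.07, 1.23-fold, adjusted p = 0.00107), and the gene has 1 transcript row. Chrna3, a subunit typical of autonomic ganglia and the medial habenula, had 12, 13 and 14 counts against 25, 18 and 27 (0.82 ± 0.32, 1.77-fold, adjusted p = 0.0386). Its groups did not overlap, but the call was lost in 5 of 6 fits with 1 library left out, all but that without CLP replicate 2 (adjusted p 0.0647 to 0.12 in those 5). With DESeq2's Wald test its adjusted p was 0.156, the top of a range that began at 0.0165 in the fit with the extract columns. Of 8 thalamus and habenula markers 2 were tested, Ntng1, which was higher (2.255 ± 0.32), and Gpr151, which was lower (−0.99 ± 0.29). The list summed to 10 to 11 CPM with the sham label and 12.2 to 16.3 with the CLP label. Tcf7l2 and Lef1 of that list were at 0, and its part in the Chrna3 value was not tested.

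The other nicotinic members did not pass. Chrnb2, the beta2 subunit of the main high-affinity brain receptor, had 27, 25 and 27 counts against 34, 35 and 37 (0.41 ± 0.24, adjusted p = 0.182) with no overlap. Chrna4, its usual partner, had 6 to 12 and 5 to 9 counts (−0.33 ± 0.50, adjusted p = 0.63). Chrna1, the muscle-type alpha subunit, had 22, 32 and 39 counts against 36, 38 and 47 (0.37 ± 0.24, adjusted p = 0.23), and both of these genes overlapped between groups. Muscle markers were at 1.45 to 2.2 CPM in sum with the sham label and 1.44 to 5.98 with the CLP label.

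Levels can be set side by side only per length, and only for the 6 members with 1 transcript row. In CPM (without edgeR's factors) per kilobase of the matched GENCODE M21 transcript, the sham-labelled order was Gabbr2 (285 ± 7.52, SD, n = 3), Chrna7 (48.9 ± 4.02), Grm2 (23.4 ± 1.78), Grm3 (14.8 ± 3.14), Chrna1 (1.47 ± 0.376) and Chrna3 (0.621 ± 0.0359). No neighbours in that order overlapped. With the CLP label Gabbr2 stayed first (283 ± 7.87), and Chrna7 (61.5 ± 0.519), Grm3 (56.4 ± 1.22) and Grm2 (55.1 ± 2.93) followed. Grm3 and Grm2 did not differ beyond their spread there. The lengths of Gabbr2 and Chrna3 come from an earlier version of their RefSeq transcript.

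Genes that work with these receptors were described from 8 lists of receptor partners, transmitter handling and signalling. Their shares are to be read against the 41.7% called, 20.7% higher and 21.0% lower, and the median log2 fold of 0.01, over all tested genes. Of 19 tested partners of AMPA and kainate receptors 5 were higher and 3 lower (42.1% called, median log2 fold 0.29). Of the 18 with a mean of at least 5 counts in the sham-labelled libraries, 5 were higher. Higher were the AMPA auxiliary subunits Cacng4 (256, 253 and 274 counts with the sham label, 528, 528 and 558 with the CLP label, 1.03 ± 0.08, adjusted p = 3.61e-12), Cacng8 (0.35 ± 0.05) and Cacng3 (0.48 ± 0.07), and Frrs1l, an AMPA receptor assembly gene (0.34 ± 0.04). Lower genes included Shisa9, another auxiliary subunit, which was chosen after its values were seen (−1.03 ± 0.17, adjusted p = 7.23e-06). Of 12 tested postsynaptic scaffold genes 4 were higher and 0 lower (33.3% called, median 0.17). These were Homer1, Lrrtm2, Lrrtm3 and Shank2 (1.88 ± 0.62). Homer1 (1.53 ± 0.19, adjusted p = 1.08e-07) encodes proteins that bind group I metabotropic receptors. Lrrtm2 (0.28 ± 0.06) and Lrrtm3 (0.35 ± 0.10) are synaptic adhesion genes. Shank2, with 1 to 4 and 6 to 11 counts, passed the minimum only through the CLP-labelled libraries. Of the 11 other scaffold genes 3 were higher.

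Of 15 tested glutamate handling genes 6 were higher and 3 lower (60% called, median 0.18), among them Slc38a3, a glutamine transporter (1.79 ± 0.22), and Glud1, a mitochondrial glutamate dehydrogenase (0.44 ± 0.04), which were higher, and Slc1a4 (−0.64 ± 0.05), a neutral amino acid transporter, and Slc1a3 (−0.20 ± 0.03), an astrocyte glutamate transporter, which were lower. In GABA synthesis and transport 2 of 6 were higher and 1 lower (50% called, median 0.10). Slc6a11, the transporter GAT3 of astrocytes, rose (0.73 ± 0.04, adjusted p = 3.39e-15), as did Gad2, a GABA-synthesising enzyme (0.14 ± 0.05).

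Of 11 tested partners of inhibitory receptors 5 were higher and 1 lower (54.5% called, median 0.15). Kctd12, an auxiliary subunit of GABA-B receptors, had 3239, 3383 and 3384 counts with the sham label and 4289, 4486 and 4403 with the CLP label (0.39 ± 0.04, adjusted p = 2.45e-09). Nlgn3, a synaptic adhesion gene (0.41 ± 0.06), and Plcl1, which binds GABA-A receptors (0.30 ± 0.06), were also higher, and Clptm1, which holds GABA-A subunits in the endoplasmic reticulum, was lower (−0.50 ± 0.13). For glycine, 2 of 3 tested genes were higher and 0 lower (66.7% called, median 0.82), both of the glycine cleavage system: Gldc (472, 452 and 489 against 1011, 914 and 952 counts, 1.01 ± 0.07) and Amt (0.50 ± 0.14). The third, Slc6a9, a glycine transporter, had 3 to 9 and 10 to 13 counts (0.82 ± 0.46, adjusted p = 0.155) and did not pass.

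Of 5 tested nicotinic partner and cholinergic genes 2 were higher and 2 lower (80% called, median −0.19). Tmem35a, a chaperone that alpha7 receptors need, rose from 690 to 840 counts with the sham label to 958 to 1121 with the CLP label (0.45 ± 0.07, adjusted p = 3.3e-06). Lynx1, which dampens nicotinic receptors, rose too (0.27 ± 0.04), and its relatives Lypd1 (−2.30 ± 0.33) and Ly6e (−0.94 ± 0.20) fell. Of 10 genes of group I metabotropic and NMDA receptor signalling 4 were higher and 5 lower (90% called, median −0.18). Nos1, the neuronal nitric oxide synthase (0.65 ± 0.05), and Rasgrf1, a calcium-dependent Ras activator (0.99 ± 0.09), were higher, while Rasgrf2 (−0.32 ± 0.04) and Ppp1r9b, a spine scaffold (−0.17 ± 0.03), were lower. Neuron markers had 3 of 5 tested genes higher and 0 lower, at 4926 to 5163 and 5612 to 5979 CPM, and their part in these lists was not tested.

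**Figure D4:**
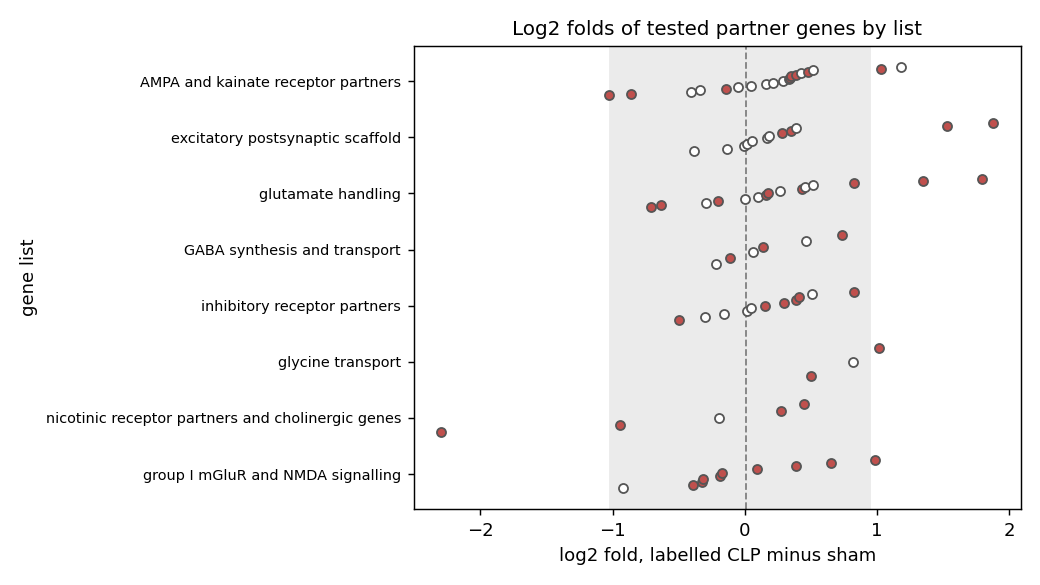
Log2 fold, labelled CLP minus sham, of each tested gene of 8 partner lists, 1 point per gene, red where the adjusted p was under 0.05, with the 10th to 90th percentile of all tested genes in grey (−1.02 to 0.95). The lists hold genes on both sides, from Lypd1 at −2.30 to Slc38a3 at 1.79, besides Shank2 at 1.88 with only 1 to 4 counts per sham-labelled library.

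In the columns labelled CLP plus extract, all 66 values of the 22 members lay inside the range of the 6 sham and CLP libraries. The SD over the 3 columns was under the counting SD (the square root of the mean) in 14 of 22 members, against 10 in each of the other groups. Gabbr2 had 7769, 7781 and 7783 counts there, an SD of 7.57 where counting alone gives 88.2. Gria4 had 64, 64 and 63. Other members spread widely, as Grm3 with 775, 401 and 314, Gabra2 with 547, 561 and 1002, and Grik5 with 158, 197 and 133. Grm2 had 682, 571 and 752, between the groups labelled sham and CLP. Fitted as designed, the extract columns against CLP gave 1 call among the members, Grm2 at −0.86 ± 0.09 (adjusted p = 0.00204), where 6.56% of 9892 tested genes were called. Against sham they gave 0 calls with edgeR, DESeq2 and limma-voom, with 5, 2 and 6 members at an unadjusted p under 0.05, where 5% of 9923 tested genes were called. These counts over all genes fell when any 1 CLP or sham library was left out. Against CLP, 649 calls became 156, 142 and 160 without CLP replicate 1, 2 or 3. Against sham, 496 became 14, 27 and 71 without sham replicate 1, 2 or 3. Leaving out extract column 1, 2 or 3 gave 667, 670 and 633 calls against CLP, and 546, 469 and 518 against sham. Because of the spread described above, no effect of the extract is read from these counts. The comparisons share libraries with each other and with CLP against sham.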

How the data were processed

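RNA from hippocampus was depleted of ribosomal RNA before library preparation, per the labels' protocols. The deposited table holds whole-number counts per RefSeq transcript, 1 column per library. Per the submitters' processing notes, fastp and Salmon were used; the sources used here give no version, index or genome build. All 120312 transcripts were matched to symbols with the RefSeq table of GRCm38.p6 and summed per gene. Genes with a mean of at least 5 counts over the 6 sham and CLP libraries were fitted (10077) with edgeR's quasi-likelihood test, robust, with TMM factors (0.983 to 1.02), and called at an adjusted p under 0.05. Approximate SE is the log2 fold over the square root of F, and intervals are 1.96 SE each way. P-values measure the spread between 3 libraries per group.

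Members with a call, and up to 8 uncalled ones with the highest mean count, were named with values, and the other members were added after their values were seen. Up to 4 called genes per list were named by smallest p. The members and lists were chosen with earlier results of these data known. Promoter sequences are from RefSeq (GRCm38.p6). The values of some genes are not reported here, though counts over members and lists include them. The fit was tested on simulated data. DESeq2 1.42.0, edgeR 4.0.16 and limma 3.58.1 ran in R 4.3.3, and pandas 2.3.3 and matplotlib 3.10.9 in Python 3.11.15.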

Additional observations from a re-analysis of the deposited data

How the results depend on the processing

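Grm3, Grm2, Gabra2, Grik5, Chrna7, Gabbr1 and Grin2a kept their direction and an adjusted p under 0.05 under every alternative that could fit them. The counts of higher members were 7 to 9 of 22, except 8 of the 20 members that filterByExpr kept and 4 of the 6 members with 1 RefSeq row. With only genes of 1 row, 2732 of 5584 genes were called, 4 members higher and 0 lower. The lower member, Gabra5, gave a count of 0 with no filter (1 at an unadjusted p under 0.05) and with DESeq2's Wald test (0 at an unadjusted p under 0.05), and 0 to 1 when 1 library was left out. DESeq2 size factors, limma-voom, filterByExpr, transcript rows and the replicate block called 8 higher and 1 lower, as reported. Gria4 changed sign with transcript rows (−0.008) and over the fits with 1 library left out (−0.087 to 0.122).

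For the extract columns against CLP, members called were 2 with the replicate block and 1 to 2 with 1 library left out. Against sham they were 1 with all 9 libraries, 1 with the replicate block and 0 to 1 with 1 library left out. Same-numbered sham and CLP libraries did not deviate together (correlations −0.024 to 0.0198, against −0.0411 to 0.0226 for differently numbered ones). Counting noise lowers such correlations, so they cannot exclude a pairing. With the block 4154 genes were called against 4199. Low counts limit precision most in the 11 of 22 members with a mean under 50.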
